A study of Homo sapiens with 9 samples.

Results

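KLHL24, PNRC1, TXNIP, IRS2, SESN3, CCNG2, YPEL5, FOXO3, CITED2 and PIK3R1 are 10 genes tied to FOXO-type transcription, insulin signalling and growth restraint, and they were taken by name from 27615 genes listed for at least 1 of 9 RNA-seq libraries. They were picked with their levels in these libraries in view, so their values are given as a description with no test. The cells were MDA-MB-231, an established human triple-negative breast cancer line. They were treated with vehicle (DMSO), with rimonabant, an antagonist of the cannabinoid receptor CB1, or with TXX-1-10, a compound derived from rimonabant, and 3 libraries were made for each treatment. Neither the dose nor the length of treatment of the sequenced cells is stated in the sources used here, so values under the compounds are set side by side without matched doses. Nothing in the labels says that libraries of a treatment came from separate cultures, so spread between them may be technical.

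FOXO proteins are transcription factors that act when insulin and growth factor signalling is low. When the pathway is active, receptor adaptors such as IRS2 recruit PI3-kinase, whose regulatory subunit p85 alpha is the product of PIK3R1, and the kinase AKT then phosphorylates FOXO proteins and keeps them out of the nucleus. In the nucleus they switch on genes that slow the cell cycle, raise stress defence and autophagy, and feed back on insulin signalling, and several of the genes described here are textbook targets. In a bulk library, a higher level in each cell and a larger share of cells that express a gene cannot be told apart.

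All 10 genes were listed for 8 libraries, and 7 of them for all 9. SESN3, CCNG2 and PIK3R1 are missing from the list of rimonabant replicate 1, which ends after 4237 genes, and a missing line is not a level of 0. Differences were therefore taken from an edgeR fit of the other 8 libraries on 9397 genes, with 2 rimonabant libraries in it, whereas levels are given for every library that lists a gene. Libraries stood apart in rimonabant replicate 1 and TXX-1-10 replicate 3, where longer genes had fewer reads than in companion libraries (Spearman rho of length with this deviation -0.693 and -0.692 over 4237 genes), so differences of the 10 genes are also given without TXX-1-10 replicate 3 and, for genes listed in all 9 libraries, with rimonabant replicate 1 added. The library totals behind the FPKM values (fragments scaled to gene length and library total) ran from 17078370 to 19277808. The line's markers VIM, CD44, EGFR, AXL, MSN and KRT18 were listed at 39.3 FPKM or more in vehicle libraries, whereas ESR1 and PGR were at 0.0459 FPKM or less and CDH1 at 0 where listed. Other luminal markers were present, GATA3 at 1.24 to 1.45 and EPCAM at 4.82 to 5.37 FPKM in vehicle, and the leukocyte marker PTPRC was at 0.0639 FPKM or less where listed.

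The sequences upstream of the genes with the largest differences are shown here so that their start regions can be compared with those that hold a FOXO or E-box motif. Windows of 250 bases before to 50 bases after the start were taken from RefSeq (GRCh38.p14), which gave 19 windows for the 10 genes. GTAAACA and ATAAACA, core forms of the FOXO binding element, and CACGTG, the E-box core bound by MLX and MYC family factors, were searched on both strands, where CACGTG reads alike. Capitals mark a match, and each sequence runs 5′ to 3′ on the strand of its gene. KLHL24 is at chr3:183635373-183635672 (+), PNRC1 at chr6:89080501-89080800 (+), YPEL5 at chr2:30146757-30147056 (+), the upstream TXNIP window at chr1:145996530-145996829 (-) and CCNG2 at chr4:77156957-77157256 (+).
KLHL24: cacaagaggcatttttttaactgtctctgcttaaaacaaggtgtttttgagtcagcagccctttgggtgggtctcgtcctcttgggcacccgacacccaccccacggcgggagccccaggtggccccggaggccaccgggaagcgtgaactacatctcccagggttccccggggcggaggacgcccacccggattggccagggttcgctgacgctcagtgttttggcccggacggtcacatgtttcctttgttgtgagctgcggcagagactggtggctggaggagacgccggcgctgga
PNRC1: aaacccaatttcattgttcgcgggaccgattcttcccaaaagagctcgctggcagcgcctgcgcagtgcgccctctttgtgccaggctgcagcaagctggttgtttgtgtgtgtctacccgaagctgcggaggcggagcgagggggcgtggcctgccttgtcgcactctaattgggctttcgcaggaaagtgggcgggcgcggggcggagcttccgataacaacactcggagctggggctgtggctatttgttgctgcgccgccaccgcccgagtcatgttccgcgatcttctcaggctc
YPEL5: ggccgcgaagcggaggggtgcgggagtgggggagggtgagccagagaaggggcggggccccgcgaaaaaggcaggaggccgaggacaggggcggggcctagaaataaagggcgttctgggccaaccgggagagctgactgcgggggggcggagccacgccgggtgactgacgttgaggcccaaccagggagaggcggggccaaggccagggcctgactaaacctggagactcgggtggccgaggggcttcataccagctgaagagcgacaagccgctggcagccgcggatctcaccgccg
TXNIP: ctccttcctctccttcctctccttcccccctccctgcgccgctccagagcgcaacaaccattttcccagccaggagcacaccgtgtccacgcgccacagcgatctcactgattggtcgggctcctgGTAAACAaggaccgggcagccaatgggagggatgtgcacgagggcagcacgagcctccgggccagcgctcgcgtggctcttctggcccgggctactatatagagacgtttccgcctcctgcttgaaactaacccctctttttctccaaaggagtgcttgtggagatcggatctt
CCNG2: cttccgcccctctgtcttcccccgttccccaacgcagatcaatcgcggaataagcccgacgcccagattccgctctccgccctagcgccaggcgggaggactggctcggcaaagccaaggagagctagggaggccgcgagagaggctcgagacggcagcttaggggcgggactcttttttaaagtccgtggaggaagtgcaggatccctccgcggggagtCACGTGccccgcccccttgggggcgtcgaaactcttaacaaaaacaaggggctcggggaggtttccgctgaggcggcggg

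GTAAACA was in the upstream TXNIP window, at position -124 from the start, and in 3.42% of 34943 windows of all genes. ATAAACA was in 1 of the 4 FOXO3 windows and in 4.25% of all windows. CACGTG was in the CCNG2 window, at position -30 from the start, in 1 of the 3 CITED2 windows, and in 7.23% of all windows. The windows of KLHL24, PNRC1, YPEL5, IRS2, SESN3 and PIK3R1 held none of these letters. A match is a description of the letters and not a bound site. Only exact matches were searched, so a window without a match may still hold a variant form of these motifs.

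Under TXX-1-10, KLHL24, PNRC1, YPEL5, CCNG2 and TXNIP were above vehicle by log2 fold changes of 1.02 to 3.01, SESN3 and FOXO3 by less, and CITED2 was below. Under rimonabant, SESN3, KLHL24 and PNRC1 were above vehicle by 1.14 to 1.21, and CITED2 and IRS2 were below. A gene was called changed when it differed by 1 or more on the log2 scale, either way, with an edgeR adjusted p under 0.05 over all 9397 genes. By these thresholds 5 of the 10 genes were higher under TXX-1-10, where 5.27% of all tested genes were (12.7% in either direction). Under rimonabant 3 were higher, where 0.734% of all tested genes were (1.52% in either direction). Between TXX-1-10 and rimonabant 3 were higher under TXX-1-10, where 2.1% were (6.42% in either direction). None of the 10 was called lower, against 7.43%, 0.787% and 4.32% of all genes. Since the genes were picked on these contrasts, the counts are not set against these shares. The median log2 fold change of the 10 was 0.91 under TXX-1-10, 0.45 under rimonabant and 0.48 between the compounds, beside -0.043, 0.0025 and -0.036 over all tested genes.

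**Figure D1:**
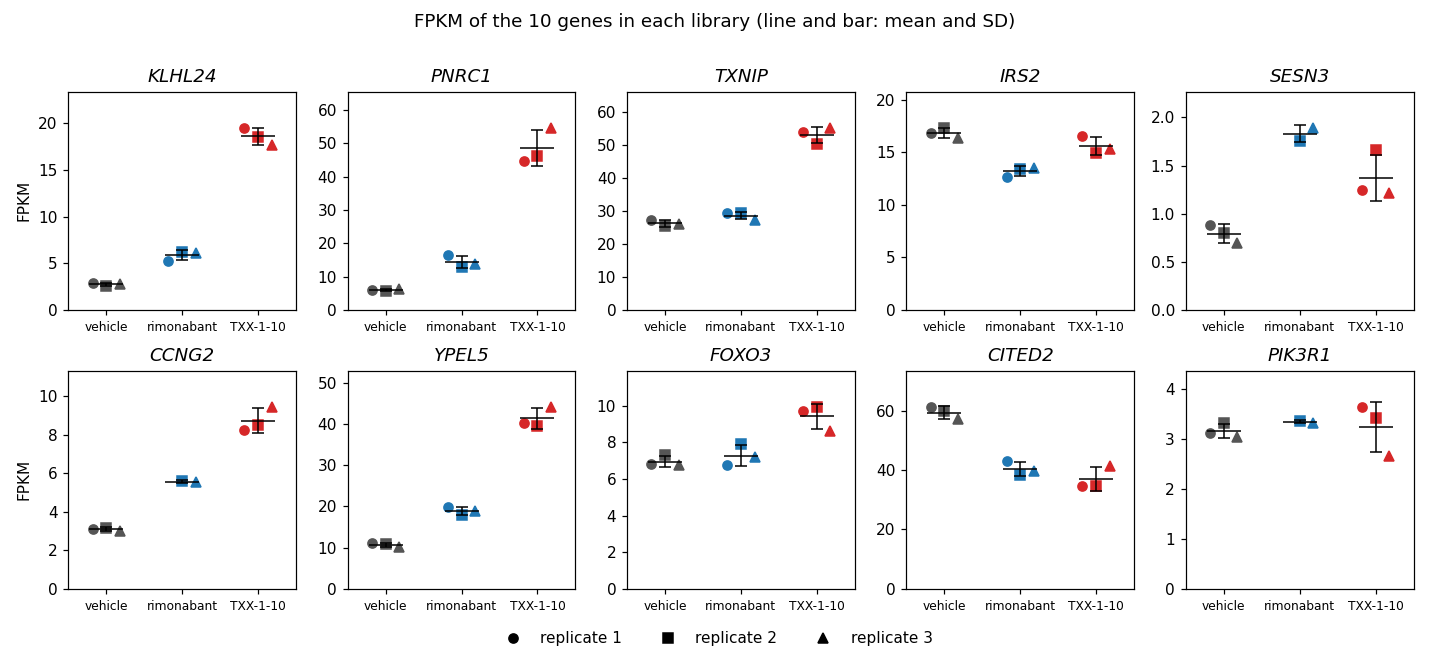
FPKM (vertical axis, from 0) of each of the 10 genes in every library that lists it, by treatment, with circles, squares and triangles for replicates 1, 2 and 3 and a line and bar for the mean and SD. KLHL24, PNRC1, YPEL5 and CCNG2 step up from vehicle to rimonabant to TXX-1-10 with no overlap, TXNIP is higher under TXX-1-10 alone, SESN3 is highest under rimonabant, and CITED2 is lower under both compounds.

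KLHL24 encodes a substrate adaptor of the CUL3 ubiquitin ligase, known for turning over keratin 14 in skin (ENSG00000114796, chromosome 3, 183635568 to 183684477, plus strand, GRCh38). Its level was 2.88, 2.59 and 2.75 FPKM in the vehicle libraries, 5.24, 6.22 and 6.15 with rimonabant and 19.5, 18.5 and 17.7 with TXX-1-10, each in the order of replicates 1 to 3. The treatments did not overlap, and every TXX-1-10 library was above every rimonabant library. The means were 2.74 ± 0.145 (SD, n = 3), 5.87 ± 0.55 (n = 3) and 18.6 ± 0.909 FPKM (n = 3). The SD was 9.36% of the mean at most. The counts behind them ran from 386 in vehicle replicate 2 to 3251 in TXX-1-10 replicate 1. Against vehicle TXX-1-10 gave a log2 fold change of 2.76 (standard error 0.062), ranked 24 of 9397 from the highest, a 6.78-fold higher level. Under rimonabant it was 1.18 (standard error 0.07), rank 31. KLHL24 thus stood among the highest ranks in both comparisons with vehicle. TXX-1-10 stood above rimonabant by 1.58 (standard error 0.066). Without TXX-1-10 replicate 3 the first and last of these were 2.79 and 1.62, and in the fit of all 9 libraries the last pair were 1.10 and 1.66.

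PNRC1 encodes a small nuclear receptor coactivator that also binds the mRNA decapping machinery (ENSG00000146278, chromosome 6, 89080751 to 89085160, plus strand). It was at 5.97, 5.7 and 6.4 FPKM in vehicle, 16.4, 12.9 and 13.7 with rimonabant and 44.8, 46.3 and 54.6 with TXX-1-10. Again the treatments did not overlap. In both compounds the highest value came from the library that stood apart by gene length, rimonabant replicate 1 and TXX-1-10 replicate 3. The means were 6.02 ± 0.356, 14.3 ± 1.85 and 48.6 ± 5.28 FPKM (SD, n = 3 each). PNRC1 had the largest difference of the 10 genes under TXX-1-10, with a log2 fold change of 3.01 (standard error 0.086), rank 14 of 9397, and 2.92 without replicate 3. Under rimonabant it was 1.14 (standard error 0.10), rank 41, and 1.25 with all 9 libraries. The compounds differed by 1.87 (standard error 0.091), 1.78 without TXX-1-10 replicate 3 and 1.76 with all 9 libraries.

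YPEL5, a yippee-like protein that associates with the CTLH ubiquitin ligase (ENSG00000119801, chromosome 2, 30146941 to 30160533, plus strand), was at 11.2, 10.9 and 10.1 FPKM in vehicle, 19.9, 17.9 and 19 with rimonabant and 40.4, 39.6 and 44.2 with TXX-1-10. The treatments did not overlap and the order was that of KLHL24 and PNRC1. TXX-1-10 stood above vehicle by 1.95 on the log2 scale (standard error 0.064), rank 72 from the highest, and 1.90 without replicate 3. Under rimonabant it was 0.78 (standard error 0.072), below the fold threshold, and 0.82 with all 9 libraries. CCNG2 encodes cyclin G2, an unconventional cyclin that slows the cell cycle (ENSG00000138764, chromosome 4, 77157151 to 77433388, plus strand). Its level was 3.13, 3.17 and 2.98 FPKM in vehicle, 5.62 and 5.53 in the rimonabant libraries that list it and 8.26, 8.51 and 9.45 under TXX-1-10. All TXX-1-10 values were above all rimonabant values, and these were above all vehicle values. On the log2 scale TXX-1-10 was above vehicle by 1.50 (standard error 0.068; 1.44 without replicate 3) and rimonabant by 0.85 (standard error 0.076), and the compounds differed by 0.65 (standard error 0.072; 0.59 without TXX-1-10 replicate 3).

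TXNIP, which binds thioredoxin and restrains glucose uptake (ENSG00000265972, chromosome 1, 145992435 to 145996600, minus strand), separated the compounds in another way. It was at 27.4, 25.5 and 26 FPKM in vehicle, 29.3, 29.3 and 27.3 with rimonabant and 53.9, 50.4 and 55.2 with TXX-1-10. Rimonabant and vehicle overlapped, whereas all TXX-1-10 libraries were above both. Against vehicle the difference was 1.02 on the log2 scale for TXX-1-10 (standard error 0.056) and 0.11 for rimonabant (standard error 0.063; 0.12 with all 9 libraries). The first of these lies at the fold threshold and was 0.99, below it, without TXX-1-10 replicate 3, without vehicle replicate 2 and with limma on log2(FPKM + 1), so the count of genes past both thresholds is 4 and not 5 in each of these settings. Between the compounds it was 0.91 (standard error 0.063), 0.88 without TXX-1-10 replicate 3 and 0.89 with all 9 libraries.

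SESN3 encodes sestrin 3, a stress protein that restrains the growth kinase mTORC1 (ENSG00000149212, chromosome 11, 95165513 to 95232541, minus strand). It was the lowest of the 10, at 0.886, 0.795 and 0.692 FPKM in vehicle, 1.76 and 1.89 in the rimonabant libraries that list it and 1.25, 1.66 and 1.22 under TXX-1-10. Both compounds were above vehicle without overlap, and SESN3 was the only member of the 10 whose rimonabant libraries were all above its TXX-1-10 libraries. The counts were 126 to 160 in vehicle, 351 and 370 under rimonabant and 238 to 322 under TXX-1-10, few enough that the standard errors were the largest of the 10. Rimonabant stood above vehicle by 1.21 on the log2 scale (standard error 0.14), rank 27 from the highest, and TXX-1-10 by 0.80 (standard error 0.14; 0.87 without replicate 3). Between TXX-1-10 and rimonabant it was -0.41 (standard error 0.14), and -0.33 without TXX-1-10 replicate 3. SESN3 shares 93 of its 10573 exonic bases with an antisense gene, and strand use in the counting is not given in the sources used here.

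FOXO3, the FOXO transcription factor among the 10 (ENSG00000118689, chromosome 6, 108559835 to 108684774, plus strand), was at 6.83, 7.29 and 6.74 FPKM in vehicle, 6.76, 7.91 and 7.18 with rimonabant and 9.69, 9.94 and 8.62 with TXX-1-10. Rimonabant overlapped vehicle, and the TXX-1-10 libraries were above both. TXX-1-10 was above vehicle by 0.44 on the log2 scale (standard error 0.069; 0.50 without replicate 3) and rimonabant by 0.12 (standard error 0.077; 0.067 with all 9 libraries). An mRNA level does not show where the protein is in the cell, which is how FOXO activity is mainly set.

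CITED2, a coactivator-binding protein that competes with HIF-1 alpha for CBP and p300 (ENSG00000164442, chromosome 6, 139371807 to 139374620, minus strand), was the highest of the 10 in vehicle and went the other way. It was at 61.3, 59.8 and 57.2 FPKM in vehicle, 43, 38.5 and 39.8 with rimonabant and 34.6, 34.8 and 41.5 with TXX-1-10. Both compounds were below vehicle in every library and overlapped each other. Log2 fold changes were -0.69 for TXX-1-10 (standard error 0.069; -0.78 without replicate 3) and -0.60 for rimonabant (standard error 0.078; -0.56 with all 9 libraries). The compounds differed by -0.084 (standard error 0.078), -0.17 without TXX-1-10 replicate 3 and -0.13 with all 9 libraries.

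The insulin signalling members differed less. IRS2, an adaptor of the insulin and IGF-1 receptors (ENSG00000185950, chromosome 13, 109752698 to 109786568, minus strand), was at 16.8, 17.3 and 16.4 FPKM in vehicle, 12.6, 13.4 and 13.5 with rimonabant and 16.5, 14.9 and 15.3 with TXX-1-10. Rimonabant was below vehicle and below TXX-1-10 in every library, and TXX-1-10 overlapped vehicle. Log2 fold changes were -0.33 for rimonabant (standard error 0.06; -0.35 with all 9 libraries) and -0.11 for TXX-1-10 (standard error 0.053; -0.10 without replicate 3), and 115 of its 8138 exonic bases are shared with an antisense gene. PIK3R1 (ENSG00000145675, chromosome 5, 68215720 to 68301821, plus strand) was at 3.13, 3.32 and 3.04 FPKM in vehicle, 3.37 and 3.33 in the rimonabant libraries that list it and 3.65, 3.42 and 2.67 under TXX-1-10. TXX-1-10 replicate 3 was below every other library and the other TXX-1-10 libraries were above every vehicle library. Those of PIK3R1 were 0.039 for TXX-1-10 (standard error 0.10), 0.16 without replicate 3, and 0.083 for rimonabant (standard error 0.11).

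**Figure D2:**
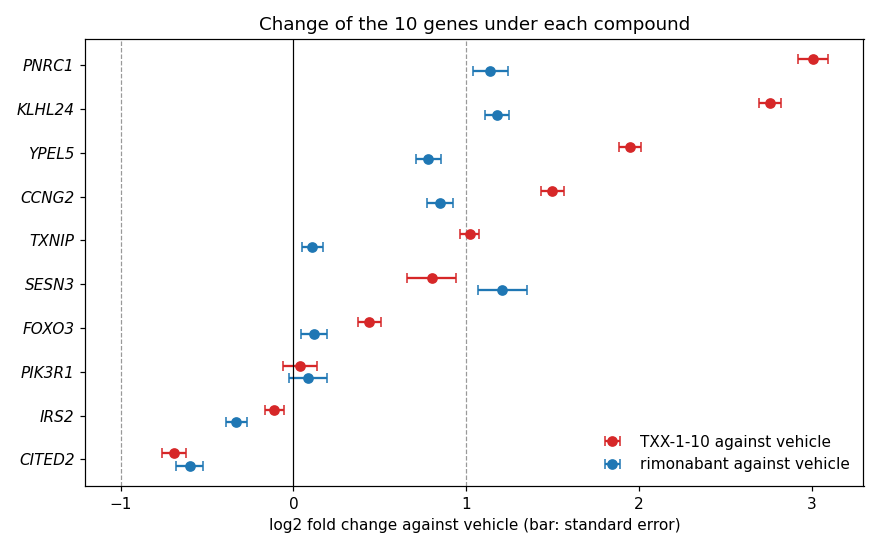
Log2 fold change against vehicle (horizontal axis) of the 10 genes under TXX-1-10 (red) and rimonabant (blue), with bars for the standard error of the edgeR fit and dashed lines at the fold threshold. PNRC1 and KLHL24 lie farthest right under TXX-1-10 at 3.01 and 2.76, SESN3 is farther right under rimonabant (1.21) than under TXX-1-10 (0.80), and CITED2 lies left of 0 under both.

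By library ranges, which were apart for 76.4%, 65.4% and 66.8% of all tested genes in the 3 comparisons, 7 genes were above vehicle without overlap under TXX-1-10, 1 was below and 2 overlapped, where 35.1% of all tested genes were above and 41.3% below. Under rimonabant 6 were above, 2 below and 2 overlapped, where 34.2% and 31.1% of all genes were above and below. PIK3R1 is among the 6, with rimonabant libraries at 3.37 and 3.33 FPKM, just above the highest vehicle library at 3.32. SESN3, CCNG2 and PIK3R1 have 2 rimonabant libraries each, with which ranges come apart more easily than with 3. Between the compounds 7 were higher under TXX-1-10, 1 was lower and 2 overlapped, where 29.6% and 37.2% of all genes were higher and lower. Rimonabant and TXX-1-10 are set against the same vehicle libraries, so the comparisons with vehicle are not independent.

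The libraries that stood apart did so in these genes too. In TXX-1-10 replicate 3, CITED2 and PNRC1, the shortest of the 10 at 2535 and 2992 bases, were each above the mean of the other replicates by 0.26 on the log2 scale. SESN3 and PIK3R1, the longest at 10573 and 10767 bases, differed from it by -0.23 and -0.40. In rimonabant replicate 1, PNRC1 differed from the mean of the other replicates by 0.31 and KLHL24 (8650 bases) by -0.24. The part of gene length in these deviations was not tested for single genes, but with a correction for length in each library the log2 fold changes under TXX-1-10 were 2.77 for KLHL24, 3.07 for PNRC1, 2.01 for YPEL5, 1.52 for CCNG2 and 1.07 for TXNIP.

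FPKM is a level per length, so genes can be set in order. In vehicle the order was CITED2 (59.4 ± 2.04), TXNIP (26.3 ± 1.02), IRS2 (16.8 ± 0.479), YPEL5 (10.7 ± 0.543), FOXO3 (6.95 ± 0.296), PNRC1 (6.02 ± 0.356), PIK3R1 (3.16 ± 0.143), CCNG2 (3.1 ± 0.0973), KLHL24 (2.74 ± 0.145) and SESN3 (0.791 ± 0.0971 FPKM, SD, n = 3 each). PIK3R1 and CCNG2 were the only neighbours in this order whose libraries overlapped. Under rimonabant PNRC1 moved up beside IRS2 and KLHL24 beside CCNG2, and the libraries of each of these pairs overlapped. Under TXX-1-10 the order began with TXNIP (53.2 ± 2.46), PNRC1 (48.6 ± 5.28), YPEL5 (41.4 ± 2.49), CITED2 (37 ± 3.9) and KLHL24 (18.6 ± 0.909). It went on with IRS2 (15.6 ± 0.859), FOXO3 (9.42 ± 0.703), CCNG2 (8.74 ± 0.63), PIK3R1 (3.25 ± 0.508) and SESN3 (1.37 ± 0.243 FPKM, SD, n = 3 each). There the neighbours TXNIP and PNRC1, YPEL5 and CITED2, and FOXO3 and CCNG2 overlapped. PNRC1 and KLHL24 thus passed 4 genes each on the way from vehicle to TXX-1-10.

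Likeness of pattern was measured as the root mean square difference, over the 8 libraries, of log2(FPKM) centred on the vehicle mean of each gene. Among the 10, KLHL24 and PNRC1 were the closest pair at 0.194, followed by IRS2 and PIK3R1 at 0.246, FOXO3 and PIK3R1 at 0.262, and CCNG2 and YPEL5 at 0.281. Of 9385 other genes, those nearest to KLHL24 were TP53INP1 (0.133), BEX2 (0.149) and FZD8 (0.149). UPP1 (0.0737), BEX2 (0.149) and TP53INP1 (0.188) were nearest to PNRC1, so KLHL24 and PNRC1 had a pair of near genes in common. UPP1, uridine phosphorylase, had mean levels of 12.7 FPKM in vehicle, 25.7 under rimonabant and 103 under TXX-1-10 in these libraries.

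The gene nearest to YPEL5 was FTH1 (0.0453), the ferritin heavy chain, followed by SLC3A2 (0.0667) and SPHK1 (0.0694). CCNG2 had its nearest genes in TPRG1L (0.0229), SAMD5 (0.0576) and XBP1 (0.0688), and the first of these was the closest match found for any of the 10. TSNARE1, SKIL and DRAM1 were nearest to TXNIP (0.0618 to 0.0671), and KLHDC10, SECISBP2L and ZBTB4 to FOXO3 (0.0327 to 0.0393). NMD3, MTRR and ZC3H12A were nearest to IRS2 (0.0433 to 0.0526), HNRNPC, ANXA2 and LYAR to CITED2 (0.0449 to 0.0493), and PTAR1, ROCK1 and TRIM44 to PIK3R1 (0.0578 to 0.063). SESN3 had no gene as close, with ZNF672, KCNK1 and PPP1R3E at 0.194 to 0.23.

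The other genes of these pathways were read from 8 lists with 226 genes, of which 186 were tested. Of these, 30 rose and 5 fell under TXX-1-10, where 5.27% of all tested genes rose and 7.43% fell. Under rimonabant 8 rose and 2 fell, where the shares over all tested genes were 0.734% and 0.787%. The same shares stand behind the counts of each list, and the lists were not tested against them. The tested genes had a median log2 fold change of 0.082 for TXX-1-10 and 0.083 for rimonabant, beside -0.043 and 0.0025 over all tested genes.

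The FOXO target list, which holds cell cycle, cell death, antioxidant and autophagy genes, was read first. Of its 28 tested genes, 11 rose and 1 fell under TXX-1-10 and 3 rose and none fell under rimonabant, with medians of 0.76 and 0.39. Over all tested genes 5.27% rose and 7.43% fell under TXX-1-10, and 0.734% rose and 0.787% fell under rimonabant. CDKN1A, BBC3 and CCND1 were known to differ in these libraries when the list was made, so its count is not independent of them. The list was not split by whether FOXO proteins raise or lower a gene, CCND1 and CCND2 included. A rise or fall is therefore not read as a sign of FOXO activity. BBC3, which encodes the cell death protein PUMA, rose from 1.44 ± 0.176 to 3.68 ± 0.0758 FPKM under rimonabant (n = 2) and to 15.8 ± 1.02 under TXX-1-10. These are log2 fold changes of 1.35 and 3.46 (edgeR adjusted p = 6.63e-06 and 3.11e-11). FBXO32, a ubiquitin ligase subunit of muscle atrophy, rose by 2.77 with TXX-1-10 (edgeR adjusted p = 2.19e-11) and was at 0.66 under rimonabant, below the fold threshold. The limit given for BBC3 may hold for FBXO32 too, at 170 to 197 counts in vehicle. GABARAPL1, an autophagosome protein, rose by 1.27 with rimonabant and by 2.52 with TXX-1-10 (edgeR adjusted p = 1.11e-07 and 1.2e-11). CDKN1A, which encodes the cell cycle inhibitor p21, rose by 1.45 and 2.03 in the same order (edgeR adjusted p = 1.36e-08 and 2.13e-11).

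The other FOXO targets that rose under TXX-1-10, named after their values were seen, were ULK1, KLF2, MAP1LC3B, CCND2, GADD45A, ATG14 and SOD2, with log2 fold changes of 1.04 to 1.96. SOD2, the mitochondrial superoxide dismutase, did not pass without TXX-1-10 replicate 3 (0.94), which left 10. CCND1, cyclin D1, was the gene that fell (-1.06, edgeR adjusted p = 1.17e-09). Textbook FOXO targets that did not pass included CDKN1B, at -0.29 under TXX-1-10 and -0.31 under rimonabant, CAT at -0.31 and -0.13, and BCL2L11 at 0.71 and 0.42. PRDX3, BNIP3 and RBL2, also named after their values were seen, were lower still under TXX-1-10, at -0.88, -0.66 and -0.60. Of the 28 tested genes 21 were above 0 under TXX-1-10. Between the compounds 8 of the 28 were called higher under TXX-1-10 and none lower, beside 2.1% and 4.32% of all tested genes. Without TXX-1-10 replicate 3, 6 of the 28 were called higher.

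**Figure D3:**
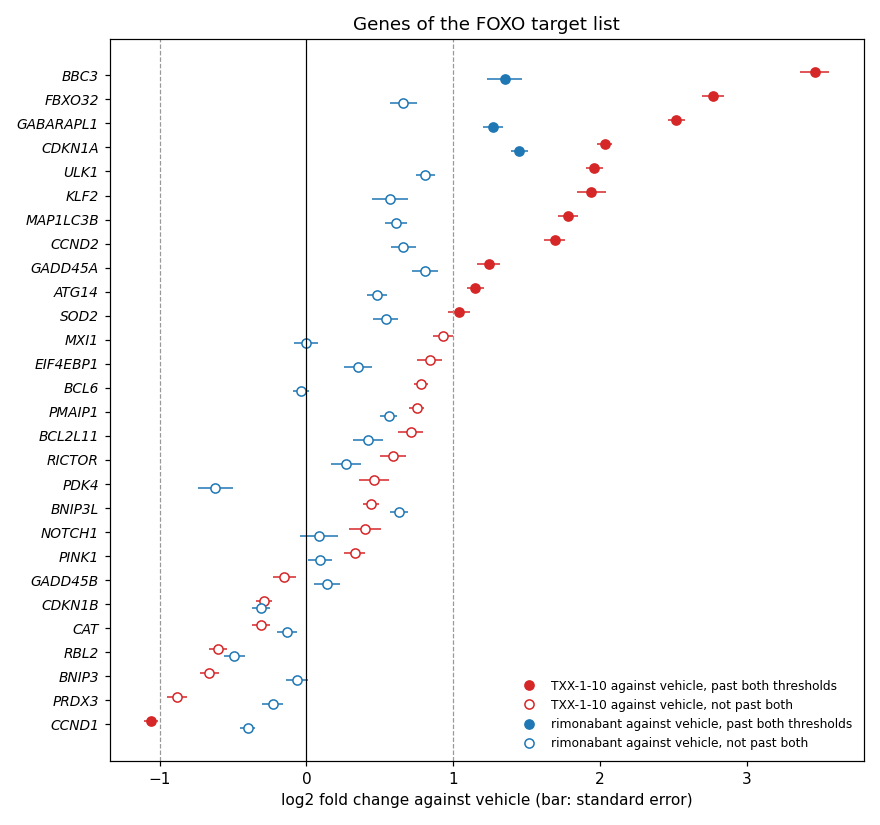
Log2 fold change against vehicle (horizontal axis) of the 28 tested genes of the FOXO target list under TXX-1-10 (red) and rimonabant (blue), with bars for the standard error, dashed lines at the fold threshold and filled points for genes past both thresholds. Filled red points run from SOD2 at 1.04 to BBC3 at 3.46 with CCND1 alone on the left at -1.06, whereas BBC3, GABARAPL1 and CDKN1A are the filled blue points.

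Upstream of FOXO, 30 PI3K, AKT and FOXO signalling genes were tested. At any fold 24 of them had an edgeR adjusted p under 0.05 with TXX-1-10, 10 with rimonabant and 19 between the compounds, beside 75.2%, 46.5% and 60.5% of all tested genes. Past the fold threshold as well, 2 fell and none rose under TXX-1-10, where 12.7% of all genes were called in either direction, and 1 fell under rimonabant, where 1.52% were. DESeq2 also called 2 and 1. The median was -0.18 under TXX-1-10 and -0.023 under rimonabant. IRS1, the sister adaptor of IRS2, fell from 22.3 ± 0.655 to 8.89 ± 1.37 FPKM under rimonabant and 6.3 ± 0.803 under TXX-1-10 (SD, n = 3 each). On the log2 scale IRS1 stood at -1.23 and -1.83 from vehicle (edgeR adjusted p = 3.25e-06 and 2.81e-09), whereas IRS2 stood at -0.33 and -0.11. SKP2, a ubiquitin ligase subunit that degrades p27, fell by 2.06 on the log2 scale with TXX-1-10 (edgeR adjusted p = 3.37e-10) and was at -0.18 under rimonabant (edgeR adjusted p = 0.0787).

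Sister genes of FOXO3 and PIK3R1 were not listed for all 8 libraries, so they were outside the fit and are given as levels. FOXO1 was at 1.3 ± 0.054 FPKM in the 2 vehicle libraries that list it, 1.78 ± 0.00495 in 2 rimonabant libraries and 2.98 ± 0.163 in 3 TXX-1-10 libraries. FOXO4 was at 1.35 ± 0.112, 2.28 ± 0.107 and 2.87 ± 0.164 FPKM in the same order. Both were below FOXO3 in each treatment. PIK3R3 was at 0.846 ± 0.034, 0.81 ± 0.0116 and 0.349 ± 0.0175 FPKM. PIK3R2 was at 0.138 FPKM or less by group mean, but a protein-coding gene annotated over it can take its reads, so this level is uncertain.

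Among 27 tested antiproliferative and quiescence genes, 10 rose and 2 fell under TXX-1-10 and 2 rose under rimonabant, with medians of 0.24 and 0.086. YPEL2, the relative of YPEL5 with the largest change, rose from 0.43 ± 0.0486 to 1.33 ± 0.195 FPKM under rimonabant (n = 2) and 4.4 ± 0.478 under TXX-1-10. On the log2 scale this was 1.63 and 3.35 (edgeR adjusted p = 1.08e-05 and 3.37e-10). With 56 to 70 counts in vehicle, YPEL2 may have been tested only through its level under the compounds. YPEL3 rose by 1.75 with TXX-1-10 (edgeR adjusted p = 2.76e-09) and was at 0.85 under rimonabant. YPEL1 and YPEL4 had 33 counts or fewer where listed and were not tested. BTG1, a deadenylase-binding growth inhibitor, rose by 2.41 under TXX-1-10, MXD1, a MAX partner that opposes MYC, by 2.16 and NDRG1, a stress-induced gene, by 2.09 (edgeR adjusted p = 2.52e-10, 2.52e-10 and 1.19e-11). NDRG1 also rose by 1.13 under rimonabant (edgeR adjusted p = 5.33e-08). CDKN2C, which encodes the CDK inhibitor p18, fell by 2.42 on the log2 scale with TXX-1-10 (edgeR adjusted p = 1.09e-09) and was at -0.0097 under rimonabant. RBL1, named after its values were seen, was the other gene that fell (-1.74, edgeR adjusted p = 2.1e-10) and was at 0.018 under rimonabant. Of the 27 tested genes 15 were above 0 under TXX-1-10. CCNG1, the sister of CCNG2, was at 0.15 under TXX-1-10 and -0.12 under rimonabant, and so did not share the values of CCNG2 (1.50 and 0.85).

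Of 32 tested sestrin and mTORC1 genes, 5 rose and none fell under TXX-1-10 and 2 rose under rimonabant. SESN2, the sister of SESN3, rose from 2.87 ± 0.107 to 10.9 ± 0.174 FPKM under rimonabant (n = 2) and 23 ± 0.306 under TXX-1-10, log2 fold changes of 1.93 and 3.01 (edgeR adjusted p = 8.7e-09 and 6.64e-12). SESN2 was thus higher under TXX-1-10 than under rimonabant (1.08, edgeR adjusted p = 2.73e-08), whereas SESN3 was at -0.41 in that comparison. With 162 to 176 and 126 to 160 counts in vehicle, SESN2 and SESN3 may have been in the fit only through their levels under the compounds. SESN1 was at 0.968 ± 0.135, 1.44 ± 0.103 and 1.42 ± 0.131 FPKM in vehicle, rimonabant and TXX-1-10 libraries that list it and was not tested. RRAGC, a Rag GTPase that places mTORC1 on the lysosome, rose by 2.42 under TXX-1-10 (edgeR adjusted p = 6.78e-10). Under rimonabant it was at 1.02 (edgeR adjusted p = 4.02e-05), a call that was lost in 5 alternatives. It was 0.79 with limma on log2(FPKM + 1), 0.92 without vehicle replicate 3, and just short of the threshold with limma on log2(FPKM + 0.1), with the length correction and without rimonabant replicate 2. RRAGD, another Rag GTPase, and TBC1D7, a subunit of the TSC complex, rose by 1.39 and 1.15 with TXX-1-10 (edgeR adjusted p = 1.19e-09 and 4.68e-07).

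The genes around TXNIP, KLHL24, PNRC1 and CITED2 stood in the other 4 lists. Of 14 tested thioredoxin and arrestin-domain genes, TXNRD1 rose under both compounds and none fell. NLRP3 and MLXIPL, named after their values were seen, were not listed for all 8 libraries and were not tested. In the vehicle, rimonabant and TXX-1-10 libraries that list it, NLRP3 was at 2.68 ± 0.0159, 2.6 ± 0.425 and 0.921 ± 0.0863 FPKM. MLXIPL was at 0.842 ± 0.0649, 0.672 ± 0.158 and 2.73 ± 0.22 FPKM in the same order. TXNRD1, thioredoxin reductase, was at 79.1 ± 4.05, 160 ± 5.89 and 167 ± 2.36 FPKM in vehicle, rimonabant and TXX-1-10 (SD, n = 3 each), log2 fold changes of 1.03 and 1.08 (edgeR adjusted p = 2.21e-07 and 4e-09). The rimonabant call falls just short of the fold threshold without vehicle replicate 3 (0.997) or rimonabant replicate 2 (0.996). PRDX5, a peroxiredoxin named after its values were seen, was at 0.97 under TXX-1-10. It passed, making 2 genes, with TMM (1.02), DESeq2 (1.01), DESeq2 size factors, the length correction (1.13) or without TXX-1-10 replicate 1 or 2. ARRDC3, an arrestin-domain relative of TXNIP, was at 0.76 under TXX-1-10 and 0.79 under rimonabant, below the fold threshold, and ARRDC4 was at 0.894 FPKM or less by group mean and was not tested.

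Of 26 tested CUL3 and KLHL genes, KLHL21 and KLHL28 rose under TXX-1-10 by 1.98 and 1.13 (edgeR adjusted p = 1.2e-11 and 6.34e-07). With edgeR none passed under rimonabant, and DESeq2 and limma also called 0. There 14 had an unadjusted p under 0.05. At any fold 12 had an edgeR adjusted p under 0.05, beside 46.5% of all tested genes. Of 20 tested decapping genes none was called by edgeR, DESeq2 or limma, with 16 at an unadjusted p under 0.05 under TXX-1-10 and 8 under rimonabant. At any fold 16 and 6 had an edgeR adjusted p under 0.05, beside 75.2% and 46.5% of all tested genes. DCPS, named after its values were seen, was at -0.96 under TXX-1-10 and passed as lower without vehicle replicate 3 (-1.02) or TXX-1-10 replicate 3 (-1.09). PNRC2, the decapping coactivator nearest in kind to PNRC1, was at 0.62 under TXX-1-10 and 0.40 under rimonabant, whereas PNRC1 was at 3.01 and 1.14.

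Of 9 tested CITED2 partners, PPARA rose under TXX-1-10 (1.12, edgeR adjusted p = 1.24e-07) and HIF1A fell under rimonabant (-1.27, edgeR adjusted p = 4.84e-08), a gene known to differ in these libraries when the list was made. HIF1A was at -0.88 under TXX-1-10, below the fold threshold. CITED4 had 7 counts or fewer in each library that lists it.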

How the data were processed

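RNA from 9 MDA-MB-231 samples was sequenced by the authors after oligo(dT) selection, 3 libraries per treatment. Per the labels, HISAT2 2.0.5 and featureCounts 1.5.0-p3 were used in the submitters' processing. The authors deposited a whole-number count for each gene without normalization, and beside it an FPKM value, the count scaled to gene length and a library total, which was worked back from the deposited values and used as library size. It is below the sum of the listed counts in vehicle replicates 1 and 3, so it is not that sum, and which reads it holds is not given in the sources used here. Each list as used here ends partway through a line, and the partial line was dropped. Coordinates were those of GENCODE release 29 (GRCh38), which 27612 of 27615 genes matched.

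Counts of 9397 genes in 8 libraries (without rimonabant replicate 1) were fitted in edgeR 4.0.16 (R 4.3.3; estimateDisp, glmQLFit, glmQLFTest), with Benjamini-Hochberg adjustment over all tested genes. A gene was called at a log2 difference of 1 or more, either way, and an adjusted p under 0.05. The common biological coefficient of variation was 0.0605. Standard errors were derived from the F statistic and are approximate. On simulated counts for TXX-1-10 against vehicle, 200 of 200 genes changed 3-fold were recovered, with 0 false calls among the unchanged genes. A 3-fold change (1.59 on the log2 scale) lies well past the fold threshold. Recovery of smaller changes was not tested, so these counts do not gauge calls near the threshold. The simulated libraries had a fixed spread and no trend with gene length, so the 0 false calls do not gauge false calls in the real libraries. No replicate pair differed by less than sampling noise (chi-square per degree of freedom 2.29 to 42.2).

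The 10 genes and the 8 lists were chosen with earlier results of these data known. Named genes were the 10, their close relatives, up to 4 called genes with the largest change per list and compound, and the 3 nearest genes in pattern. SOD2 stands on 2 gene IDs and the ID with more reads was used. The alternatives used DESeq2 1.42.0, limma 3.58.1 on log2(FPKM + 1) and log2(FPKM + 0.1), TMM, FPKM filters, a length correction (lowess span 0.3), the replicate block, fits of 2 groups, all 9 libraries and each library left out. Python 3.11.15 with numpy 2.4.6, pandas 2.3.3 and matplotlib 3.10.9 made the tables and plots.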

Additional observations from a re-analysis of the deposited data

Results flagged for a closer look

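Of the genes of the lists, named after their values were seen, PDK4 and KLF9 lay below vehicle under rimonabant and above it under TXX-1-10, with a call in the direct test of the compounds. PDK4, a kinase that shuts down pyruvate oxidation and a FOXO target, was at 4.7 ± 0.346 FPKM in vehicle (SD, n = 3), 3.06 ± 0.0836 under rimonabant (n = 2) and 6.46 ± 0.775 under TXX-1-10 (n = 3). Log2 fold changes were -0.62 for rimonabant (edgeR adjusted p = 0.00108) and 0.46 for TXX-1-10 (edgeR adjusted p = 0.00086). TXX-1-10 was above rimonabant by 1.08 (edgeR adjusted p = 5.86e-06), or 0.99 without TXX-1-10 replicate 3 and 0.87 with limma on log2(FPKM + 1), below the threshold. KLF9, a transcription factor that restrains proliferation, was at 6.31 ± 0.331, 4.82 ± 0.323 and 13.1 ± 0.302 FPKM in the same order. They corresponded to log2 fold changes of -0.39 for rimonabant (edgeR adjusted p = 0.00133) and 1.05 for TXX-1-10 (edgeR adjusted p = 1.44e-08), which lay 1.44 apart (edgeR adjusted p = 1.16e-08). KLF6 and DDIT4 had the same order of treatments but fell just short of the fold threshold between the compounds, at 0.99 and 0.95. KLF6 was at -0.16 under rimonabant (edgeR adjusted p = 0.0504) and 0.84 under TXX-1-10, and passed between the compounds in 7 alternatives, among them TMM (1.05), DESeq2 (1.04) and all 9 libraries (1.03). DDIT4 was at -0.78 and 0.18, and passed in 4, among them TMM (1.005) and the length correction (1.01).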

How the results depend on the processing

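No value of the 10 genes reversed a call in 20 alternatives. Of 585 values of single genes under them, 572 moved by less than the spread between replicates and 13 by more, 11 with limma on log2(FPKM + 1) and 2, for KLHL24, with all 9 libraries. Some of the 572 could not move. Leaving out a rimonabant library, for example, does not alter the groups in TXX-1-10 against vehicle. The count of 572 is thus no measure of robustness. For PIK3R1, 5 small values changed sign. The median of the 10 genes could not be computed with all 9 libraries or a mean FPKM of at least 5, which drop members. With limma on log2(FPKM + 1), which shrinks low genes by construction, KLHL24 and SESN3 were at 0.94 and 0.66 under rimonabant, below the fold threshold, and TXNIP was at 0.99 under TXX-1-10, which left 4 of the 10 genes past it. The median of the 10 genes under TXX-1-10 was 0.70, and rimonabant changed 76 genes against 143, 5 of the lists' genes higher. In that setting BBC3 and YPEL2 lost their rimonabant calls (0.94 and 0.70), and SOD2, FLCN, KLF9, KLHL28, PPARA and TBC1D7 their TXX-1-10 calls (0.73 to 0.95). All 9 libraries allowed a test of 4237 genes and not 9397, and fewer were called: 501 for TXX-1-10 against vehicle (1193 with 8 libraries), 48 for rimonabant against vehicle (143) and 251 for TXX-1-10 against rimonabant (603). Of the lists' genes 14 rose and 3 fell under TXX-1-10, 5 rose under rimonabant, and 6 rose and 1 fell between the compounds. Of FOXO targets 6 rose under TXX-1-10 and 3 between the compounds, and of PI3K, AKT and FOXO signalling genes 1 fell under TXX-1-10 and 0 between the compounds. Whether replicate numbers pair the libraries could not be decided, since the libraries that stood apart by gene length bear different numbers. Deviations of same-numbered libraries correlated across genes at -0.0925 to 0.0304 between TXX-1-10 and vehicle, -0.0563 to 0.0442 between rimonabant and vehicle and -0.789 to 0.8 between the compounds, and 1, 2 and 2 of 6 libraries were closest to their own number. With the replicate number as a block, 1195, 140 and 608 genes were called in the same comparisons, and 11 FOXO targets still rose under TXX-1-10. Low-count genes were mostly not tested, and genes low in vehicle may have been tested only because they were higher under a compound. SESN3, with 126 counts in its lowest library, had the least precise values of the 10 genes.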
